A study of Caenorhabditis elegans with 2 samples.

Results

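Chromatin bound by tagged CEH-28 was examined at 7 genes that are known targets of this transcription factor or are known from the M4 neuron, where it acts. They were ceh-28 itself, egl-17, dbl-1, ser-7, zag-1, ceh-34 and eya-1, chosen by name among 19973 protein-coding genes of the nuclear genome. For each gene, every peak was read in a window made of the gene body and 5000 bp on either side. The samples were 2 biological replicates of whole L3 larvae, pooled male and female, of strain OP241, and both carried the unc-119(ed3) III mutation and the wgIs241 transgene, which holds ceh-28 fused to eGFP. They formed 1 group, with no untagged or untreated group to set it against. A relaxed peak list of 30000 entries was deposited for each replicate and for both pooled, together with a thresholded list of 3531 peaks that passed the authors' test of reproducibility. No expression was measured, so whether these genes were active in M4 in these larvae was not checked, and binding in few cells cannot be told apart from weak binding in many.

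In Caenorhabditis elegans CEH-28, an NK-2 class homeodomain factor, is known from M4, a motor neuron of the pharynx that drives peristalsis of the isthmus during feeding. Worms without ceh-28 express egl-17 in M4 where it is normally silent, and lose expression of dbl-1 there, so that egl-17 is known as a repressed target and dbl-1 as an activated one. EGL-17 is a fibroblast growth factor and DBL-1 a ligand of the BMP branch of the TGF-beta family that sets body size. SER-7 is a serotonin receptor that acts in M4 in feeding, ZAG-1 a zinc-finger homeodomain repressor of the ZEB family, and CEH-34 and EYA-1 are a homeodomain protein of the sine oculis family and its Eya cofactor in pharyngeal neurons.

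Of the 7 genes, 2 had a thresholded peak in their window, egl-17 and ser-7, and among all 19973 protein-coding genes the share was 33.5%. A promoter was taken as the 1000 bp before and the 200 bp after an annotated 5' end. In promoters so defined, 0 of the 7 genes held a thresholded summit, where 11.2% of all genes did. The egl-17 peak reaches into such a window with its interval but not with its summit, and counted by interval 1 of the 7 genes had a promoter peak, against 12.2% of all genes. The letters under the strongest reproducible peak, in egl-17, the one past the 3' end of ser-7 and the strongest relaxed peak of zag-1 are printed because they show what stands at these places in the genome. They are on the plus strand of ce11, from chrX:489858-490072, chrX:2687185-2687383 and chrIV:3866057-3866257. Capitals mark an aspartate tRNA gene and then the match to GCGCAGGG in egl-17, the match to AATCGAT near ser-7 and both matches to CTGCGTC near zag-1.
egl-17 intron peak: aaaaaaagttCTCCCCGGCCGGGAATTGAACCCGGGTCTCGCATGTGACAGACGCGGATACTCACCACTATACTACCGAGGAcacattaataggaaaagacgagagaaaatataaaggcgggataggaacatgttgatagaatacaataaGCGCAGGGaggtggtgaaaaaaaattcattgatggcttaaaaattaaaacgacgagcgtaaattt
ser-7 downstream peak: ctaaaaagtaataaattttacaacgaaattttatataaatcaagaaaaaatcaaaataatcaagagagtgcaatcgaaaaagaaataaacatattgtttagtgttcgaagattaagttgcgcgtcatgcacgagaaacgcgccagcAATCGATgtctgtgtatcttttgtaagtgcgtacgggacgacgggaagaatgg
zag-1 downstream relaxed peak: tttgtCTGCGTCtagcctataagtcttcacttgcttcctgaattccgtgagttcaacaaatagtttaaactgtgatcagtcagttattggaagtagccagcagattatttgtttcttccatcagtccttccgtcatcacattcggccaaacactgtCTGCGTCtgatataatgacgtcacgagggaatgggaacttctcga

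The egl-17 gene (WBGene00001185, chrX:489685-492318, plus strand) held the strongest peak of the 7 genes. It spanned chrX:489792-490191 with a summit at 489992, in an intron, 307 bp downstream of the 5' end of the gene. A second annotated 5' end lies closer, and the summit was 218 bp downstream of it, just past the 200 bp that the promoter window reaches. With a window reaching 500 bp downstream the summit was inside, and 11.7% of all genes then held a thresholded summit. The authors' signal was 82.79, which ranked 2579 of 3531, and the −log10 q-value was 3.777, the highest that the list holds. All peaks of higher signal share that value, and ranked by −log10 q-value and then signal the peak was again at 2579. In replicate 1 the peak had a signal of 44.99 and ranked 2670 of 30000, and in replicate 2 it had 38.77 and ranked 2849. The summits of the replicates lay 6 and 14 bp from the pooled one. egl-17 was the only one of the 7 genes whose thresholded peak overlapped one of the 3531 strongest peaks of each replicate, against 26.3% of all genes. The peak was of low rank among thresholded peaks, whose median signal was 109.5, and 26% of all genes had a stronger peak in their window. The windows of che-2 and B0310.1 hold it too.

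A small gene for an aspartate tRNA, F38G1.t2 (WBGene00023035, chrX:489868-489939, minus strand, 72 bp), lies in the same intron of egl-17. The summit was 53 bp from its 5' edge, so that the tRNA gene, printed above in capitals, falls inside the peak. Transfer RNA genes are transcribed by RNA polymerase III from signals within the gene. Across the genome 65 of 612 tRNA genes had a thresholded summit within 250 bp, or 10.6%, and among 27 aspartate tRNA genes 4 did, or 14.8%. These 4 were F38G1.t2, F52H2.t1, F22F1.t3 and R03E1.t2. All 4 are on X, but how many of the 27 lie on X was not counted. Seen from the peaks, 56 of 3531 thresholded summits (1.59%) lay that close to a tRNA gene, the egl-17 summit among them. Their median signal was 87.09, with a range of 66.03 to 5643.5. The share of other kinds of genes with a thresholded summit within 250 bp was not computed. A threonine tRNA gene upstream of egl-17, F38G1.t1 (chrX:487815-487886, plus strand), had only a weak peak of replicate 1 nearby, with a signal of 9.503 and rank 27220. Whether the tRNA gene has a part in the egl-17 peak was not tested. These counts were made after the peak had been seen.

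The same peak holds GCGCAGGG, 16 to 23 bp to the right of the summit. These letters are the core of the motif known from sites on X that recruit the dosage compensation complex of C. elegans. Read on both strands within 50 bp, GCGCAGGG occurred at 16 of 3531 thresholded summits (0.453%) and in 4 of 7062 windows of equal size placed 500 bp off the summit on either side (0.0566%). All 16 were on X, where they made up 2.91% of 550 peaks. Most carriers were strong, with a median signal of 1026.7, whereas the egl-17 peak ranked 15 of 16 among them and 389 of the 550 peaks on X. A tRNA gene lay within 250 bp of 2 of the 16, namely the egl-17 peak and the strongest peak of the whole list, at chrX:8036001-8036973 with a signal of 5643.5. A match to a motif is a description of the letters and says nothing of the protein that binds there.

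**Figure D1:**
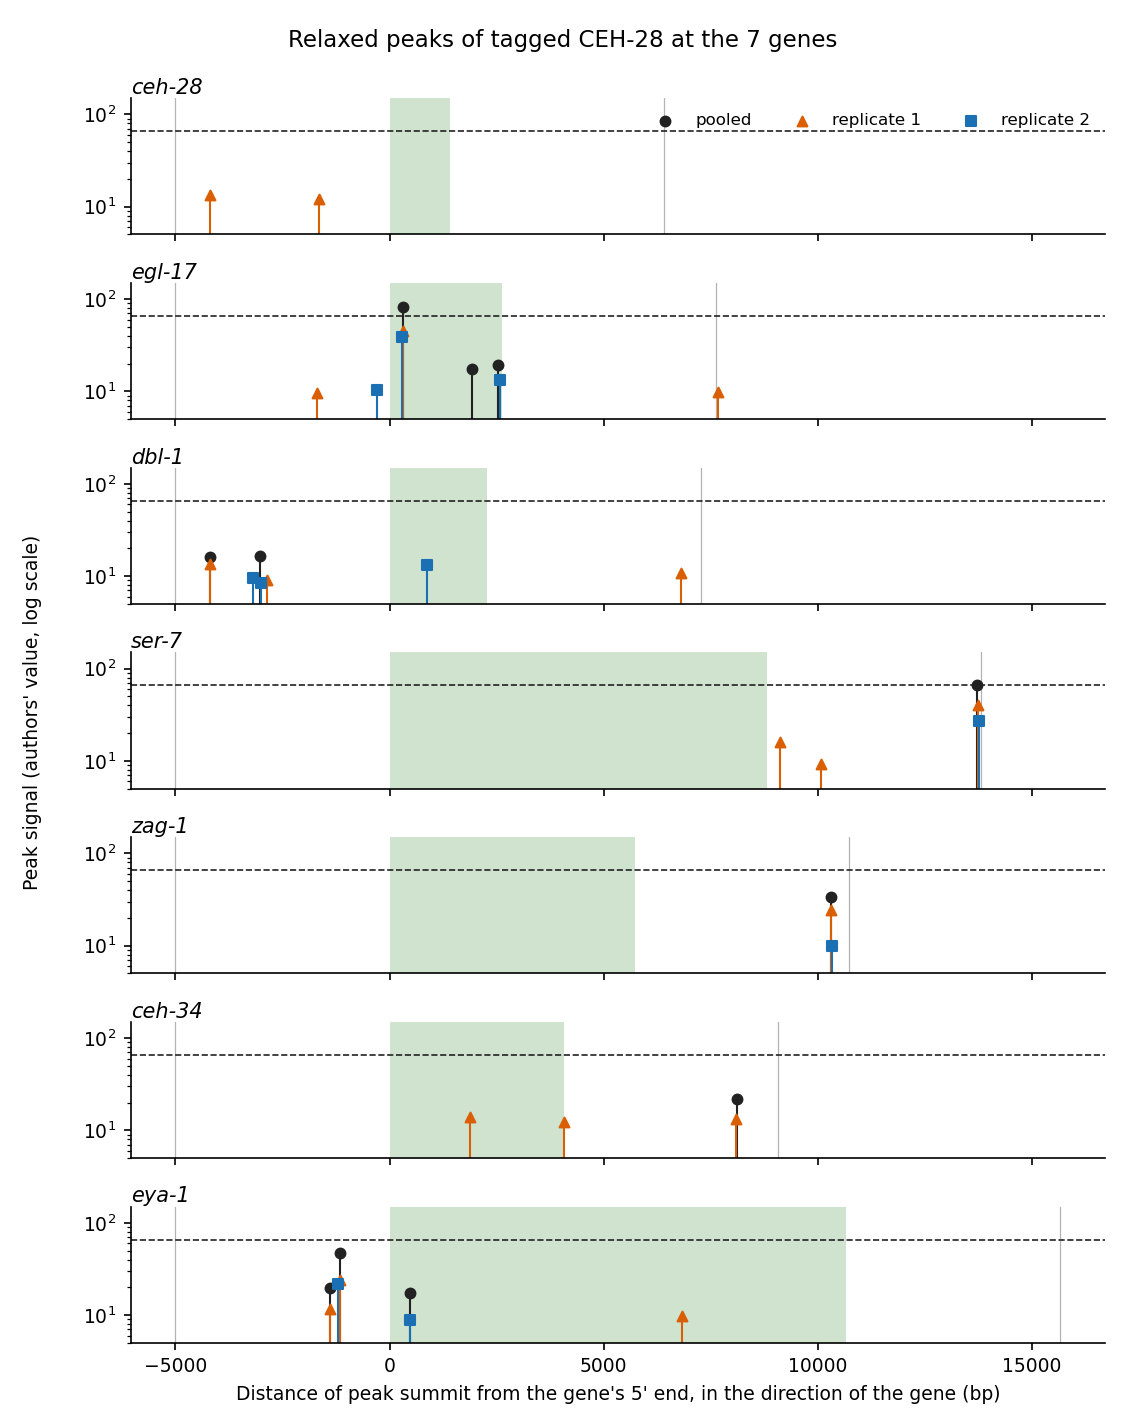
Peak summits in the windows of the 7 genes in the relaxed pooled list (black circles) and in the lists of replicate 1 (orange triangles) and replicate 2 (blue squares). The x axis is the distance of the summit from the 5' end in the direction of the gene (bp). The y axis is the authors' signal on a log scale, the green band the gene body and the grey lines the window edges. The dashed line is the lowest signal of the thresholded list, 65.92, and is to be read against the pooled peaks only. Only egl-17 and ser-7 have a pooled peak above that line.

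Weaker egl-17 entries were few. The pooled list had another intron peak with its summit at 491602 and a signal of 17.29, and one in the 3' UTR at 492224 with a signal of 19.11. The 3' UTR entry had a partner in replicate 2 with a signal of 13.4 and none in replicate 1. Upstream of the gene replicate 2 alone had a summit 295 bp from the 5' end, with a signal of 10.29 and rank 22860 of 30000.

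For dbl-1 (WBGene00000936, chrV:6758135-6760418, plus strand), the activated target, the thresholded list held no peak in the window. The pooled list had 2 weak entries upstream, with a signal of 16.47 at 3027 bp (rank 25834 of 30000) and 16.3 at 4191 bp (rank 26193). These are among the weakest entries of a list that begins at 14.44, and 76.8% of all genes had a stronger best peak. Replicate 1 had 13.64 at 4185 bp upstream, 9.17 at 2864 bp upstream and 10.79 past the 3' end, in a coding exon of bbs-8. Replicate 2 had 9.611 and 8.476 at 3195 and 2992 bp upstream, and 13.3 in a coding exon of dbl-1, 869 bp from the 5' end. The strongest entry of each replicate lay at a place where the other replicate had none. The nearest thresholded summit to the 5' end of dbl-1 was 51068 bp away, and 12.4% of all genes lay farther from one.

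The ser-7 gene (WBGene00004780, chrX:2673572-2682384, plus strand) had its thresholded peak at the far edge of its window, at chrX:2687083-2687482. The summit was 4899 bp past the 3' end and 99 bp upstream of the 5' end of immt-1, the neighbouring gene on the minus strand, which codes for a protein of the mitochondrial inner membrane. The signal was 66.76, close to the lowest of the thresholded list at 65.92, and 33% of all genes had a stronger peak in their window. The peak ranked 3455 of 3531. Replicate 1 had a signal of 40.82 there and ranked it 3065, and replicate 2 had 27.39 and ranked it 4934, which is not among its 3531 strongest. Both replicate lists hold the peak, and it was among the strong peaks of replicate 1 but not of replicate 2. With double the number of strong peaks it was among those of both. AATCGAT, printed above, stood 48 to 54 bp from the summit, so that it was not wholly within 50 bp. Within 100 bp, 55.3% of thresholded summits and 19.3% of flanking windows held AATCGAT or AATCAAT. A stronger thresholded peak lay 5499 bp upstream of the ser-7 5' end, just outside the window, with a signal of 247.8 and rank 564, and its summit was 54 bp upstream of the 5' end of C09B7.2. Between these peaks, over the whole ser-7 gene, the pooled list had no entry for 18953 bp. Replicate 1 had 2 weak ones past the 3' end of the gene, with signals of 16.2 and 9.174.

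The zag-1 gene (WBGene00006970, chrIV:3855843-3861569, plus strand) had no thresholded peak in its window and 1 relaxed pooled peak. Its summit was 4588 bp past the 3' end and 1113 bp upstream of aat-8. Its signal was 33.73, where 58.05% of all genes had a stronger pooled peak, and it ranked 9223. Replicate 1 had 24.1 (rank 6606) and replicate 2 had 9.866 (rank 24250). The replicates agreed on the place, within 17 bp, but not on the rank. CTGCGTC matched at 2 places within 100 bp of this summit, at -95 to -89 bp and at 56 to 62 bp. At thresholded summits 13.2% of windows of that size held this motif, and 1.76% of flanking windows did. The share over all relaxed pooled summits was not computed. Upstream of that peak the pooled list had no entry for 40495 bp, a stretch that holds the zag-1 gene, and 160 of 25704 such stretches between pooled peaks (0.623%) were longer. In replicate 1 the stretch was 40482 bp and in replicate 2 it was 42100 bp. The share given is over stretches, and the share of genes that lie in ones as long was not computed. The nearest thresholded summit was in an intron of F37C4.4, 7801 bp past the 3' end, with a signal of 78.

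Autoregulation of ceh-28 can be read only with care, because the transgene adds copies of ceh-28 and the strain behind the control library was not stated. The gene (WBGene00000450, chrX:13074673-13076092, plus strand) had no thresholded, pooled or replicate 2 peak in its window. It was the only one of the 7 with no relaxed pooled peak, against 21.4% of all genes. Replicate 1 had 2 weak entries, 1639 bp upstream with a signal of 12.11 and 4205 bp upstream with a signal of 13.28, ranked 19650 and 17123 of 30000. The nearest thresholded summit was 28156 bp away, with a signal of 210, and 27.9% of all genes lay farther from one. How extra copies of the gene affect peaks called against control reads was not tested.

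**Figure D2:**
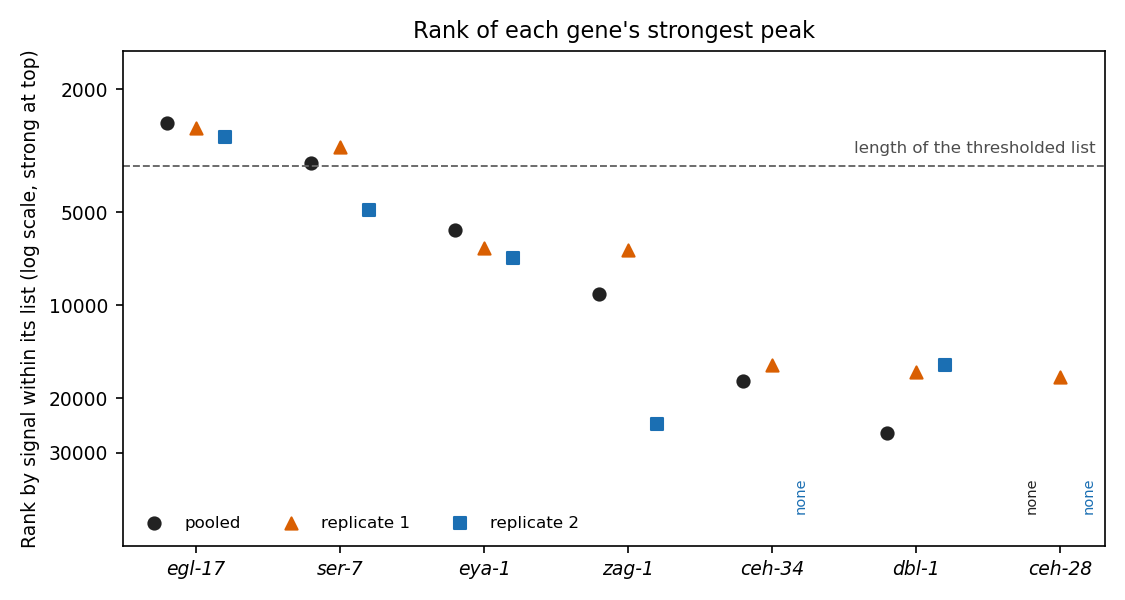
Rank by signal of the strongest peak of each gene within the relaxed pooled list (black circles) and the lists of replicate 1 (orange triangles) and replicate 2 (blue squares), on a log y axis with strong peaks at the top; "none" marks a list without a peak in the window. The dashed line is drawn at rank 3531, the length of the thresholded list, and the 3 ranks of egl-17 lie above it, at 2579, 2670 and 2849.

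The short sequences through which NK-2 class proteins are known to bind were looked for in the same windows. TCAAGTG and TTAAGTG were read on both strands, where CACTTGA and CACTTAA are the same sites on the other strand. The 7 windows, 105.6 kb in all, held 22 matches, or 0.208 per kb, against 0.235 per kb in the genome. None lay within 50 bp of any of the 11 pooled summits in the windows. At thresholded summits across the genome 1.30% of windows of that size held a match, and 1.88% of flanking windows did. Of the 22 matches, 2 lay within 200 bp of a relaxed summit of any list, 1 in ceh-28's window and 1 in egl-17. Those 2 are printed with the site in capitals, together with the match closest to the 5' end of dbl-1, of ceh-34 and of zag-1, to show which letters stood near these genes without a peak summit on them.
ceh-28 NK-2 match: aaaacaaataTCAAGTGatctttcttc
egl-17 NK-2 match: tcaccctcccCACTTGAgcactcgtca
dbl-1 NK-2 match: tagaagacctTCAAGTGacgttttgtt
ceh-34 NK-2 match: tagtgatgatCACTTGAgtttgattaa
zag-1 NK-2 match: ctgcgcaaatTCAAGTGcccggaatgc

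The ceh-28 site is at chrX:13070366-13070392, 4294 bp upstream of the 5' end and 89 bp from a weak summit of replicate 1. The egl-17 site, at chrX:492043-492069, is in a coding exon and 168 bp from the weak pooled summit in the 3' UTR. The dbl-1 site, at chrV:6755609-6755635, is 2513 bp upstream, and the closest relaxed summit of any list was 351 bp away. The ceh-34 site, at chrV:5320064-5320090, is 500 bp upstream with its closest summit at 2381 bp, and the zag-1 site, at chrIV:3855910-3855936, is in a coding exon with its closest summit at 10234 bp. As the count above implies, the last 3 sites had no relaxed summit of any list within 200 bp. The share of all matches in the genome with one that near was not computed.

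For ceh-34 (WBGene00000455, chrV:5315496-5319577, minus strand) the thresholded list and replicate 2 had no peak in the window. The pooled list had 1 entry, with a signal of 21.81 and rank 17614, and 71% of all genes had a stronger one. This entry lay 4036 bp past the 3' end and 475 bp upstream of C10G8.4. Replicate 1 had 13.23 there, 14.06 in an intron of ceh-34 (rank 15657) and 12.25 at the 3' end, where ceh-34 and C10G8.2 overlap. The gene lies in a stretch of 417743 bp with no thresholded peak, and 1 of 3338 such stretches was longer. The nearest thresholded summit to its 5' end was 185670 bp away, and 0.280% of all genes lay farther from one.

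The partner of ceh-34, eya-1 (WBGene00001377, chrI:14220693-14231360, minus strand), had no thresholded peak but a relaxed peak before its 5' end in both replicates. The pooled summit was 1155 bp upstream, in intergenic sequence, with a signal of 46.83 and rank 5721. In replicate 1 the signal was 24.28 (rank 6523) and in replicate 2 it was 21.97 (rank 7021), so that both replicates gave it a like place. The signal was below the lowest of the thresholded list, 65.92, and the −log10 q-value was 1.935. A stronger pooled peak was present in the windows of 45.9% of all genes. AATCGAT lay at -24 to -18 bp from this summit on the plus strand. A weaker pooled entry 1380 bp upstream had a signal of 19.68, and replicate 1 had a summit 1383 bp upstream with 11.6. Another, in an intron 475 bp downstream of the 5' end, had 17.24, with 8.849 at the same place in replicate 2 and no entry in replicate 1. The nearest thresholded summit was 45704 bp from the 5' end.

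Together the 7 windows had fewer relaxed peaks per kb than the genome. The pooled list had 11 summits in the windows, or 0.104 per kb, against 0.299 per kb in the genome, a ratio of 0.348. Replicate 1 had 17 summits, a ratio of 0.538, and replicate 2 had 10, a ratio of 0.316, so that the ratio was below 1 in both replicates but differed between them (SD 0.157, n = 2). Thresholded summits numbered 2, a ratio of 0.538. The windows are few, and no test was run on these genes, which were chosen with results known. By median, the strongest pooled signal in a window was 33.73 for the 7 genes, with a range of 0, for no peak, to 82.79, and 42.16 for all genes. The median number of pooled peaks per window was 1 for the 7 genes and 3 for all genes, although the windows of the 7 were longer, with medians of 14082 bp and 12027 bp. The median distance of the 5' end to the nearest thresholded summit was 28156 bp for the 7 genes and 13223 bp for all genes.

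**Figure D3:**
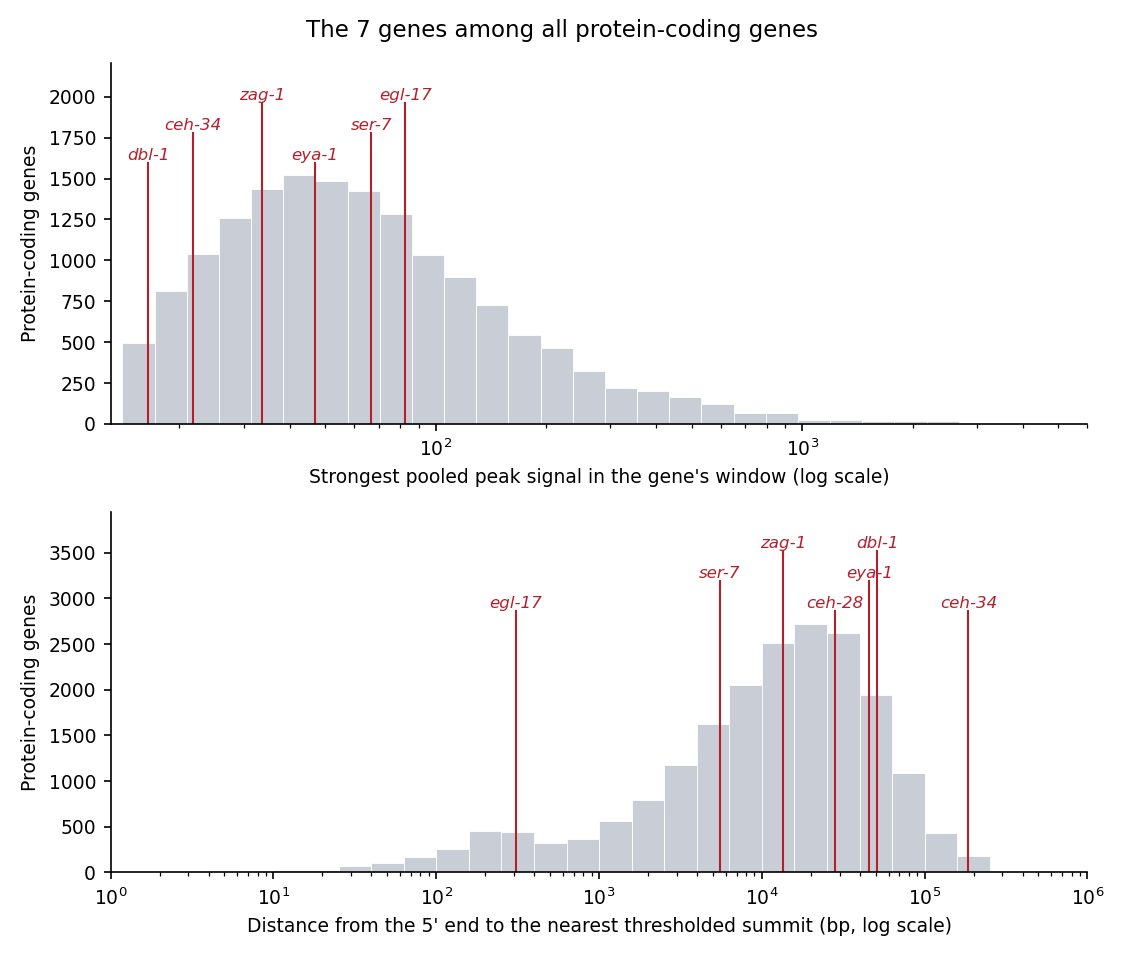
The 7 genes (red lines) among all protein-coding genes (grey bars, genes per bin). The upper panel gives the strongest pooled peak signal in the window, for genes that have one, and the lower panel the distance in bp from the 5' end to the nearest thresholded summit, both on log x axes; ceh-28 has no pooled peak, egl-17 is nearest a summit at 307 bp and ceh-34 farthest at 185670 bp.

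Peaks in the windows were shared between replicates to a different extent. Of 18 replicate 1 peaks that overlap the windows, 7 had an overlapping peak in replicate 2 (38.9%), against 60.8% over the whole replicate 1 list. Of 10 replicate 2 peaks, 6 had one in replicate 1 (60%), against 60.9% over the whole list. The shared places were the egl-17 intron, the ser-7 edge, the zag-1 downstream peak, the eya-1 upstream peaks, the weak dbl-1 upstream entries and a weak one in the 3' UTR of B0310.1 at the edge of egl-17's window. Motifs that are frequent at thresholded summits were seen at some of the pooled peaks. AATCGAT or AATCAAT stood within 50 bp of 2 of the 11 pooled summits, at eya-1 and at the farther of the dbl-1 entries, where 47.4% of all thresholded summits and 12.2% of flanking windows held one. CTGCGTC stood within 50 bp of none of the 11, against 8.55% of thresholded summits and 0.793% of flanking windows. Most of the 11 were weaker than any thresholded peak. Shares over all relaxed pooled summits were not computed for these motifs or for the NK-2 class.

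The gene that carries the strain's mutation, unc-119 (WBGene00006843), whose loss leaves worms uncoordinated, had no thresholded peak in its window. Its relaxed peaks numbered 9 in the pooled list, 8 in replicate 1 and 6 in replicate 2, where the median over all genes was 3 in the pooled list. Its window was 16295 bp long, against a median of 12027 bp over all genes. Some of the 9 overlapped each other, and some were near the lowest signal of the pooled list, 14.44. The labels do not say whether the transgene carries unc-119 too, and an effect of extra copies on these peaks was not tested. The strongest pooled one had a signal of 46.65 and lay 158 bp upstream of cut-6.

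The other genes of the pathways to which the 7 belong were read in the same way. Among 40 related genes that are not among the 7, 23 had a thresholded peak in the window, against 33.5% of all genes. Their windows had a median length of 14875 bp, and several of these genes share a peak or lie next to another gene's promoter, so the count describes the lists and no more. In the DBL-1 pathway, dbl-1 itself had no peak and 9 of the 12 others did, or 6 of the 12 with a flank of 2000 bp. The Smad genes sma-3 and sma-2, which carry the signal to the nucleus, had summits 72 and 52 bp upstream of their 5' ends with signals of 150.4 and 88.76. sma-9, for a zinc-finger cofactor of the Smads, had 4 peaks of which the strongest had a signal of 317.8 and rank 397, 3022 bp upstream. sma-10, for a membrane protein that acts with the receptors, had a summit 85 bp upstream with a signal of 138, and adt-2, for a secreted protease, had 4 weak peaks of 66.23 to 89.92. The receptor genes sma-6 and daf-4 had peaks of 197.2 and 87.63, 3312 and 3762 bp upstream, the first of them 13 bp from the 5' end of efr-3. The remaining ones were drag-1, for a co-receptor, with 80.21, and lon-1, a target of the pathway, with 108.3, both nearer another gene's 5' end.

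In the FGF pathway, egl-17 and 4 of the 5 other genes had a thresholded peak. egl-15, the receptor of EGL-17, had one 1396 bp upstream with a signal of 80.36. sem-5, for an adaptor protein of the Grb2 kind, had 3, the strongest 578 bp upstream with a signal of 156.7. clr-1, for a receptor phosphatase that restrains EGL-15, had signals of 102.5 and 78.22 outside the gene, and soc-2, for a leucine-rich scaffold protein, had 77.59 in an intron, 167 bp upstream of an inner 5' end. The other ligand gene of this list, let-756, had no thresholded peak.

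The other lists were of homeobox genes, serotonin receptors, pharyngeal regulators and cholinergic genes. Of the NK-2 class genes, ceh-24 had a peak 4684 bp upstream with a signal of 137.6, nearer swan-1, and none of the other 3, ceh-28 included, had one. With a flank of 2000 bp the ceh-24 peak was not counted. Of the sine oculis family and Eya genes, ceh-34 and eya-1 included, 0 of 5 had one, but without replicate 1 unc-39 gained one. Of the serotonin receptor genes, ser-7 and ser-4 had a thresholded peak, ser-4 in a coding exon with a signal of 98.39. Of 8 regulators of the pharynx, pha-4, the organ's forkhead selector gene, had 114 in an intron, peb-1 had 84.3, hlh-6 had 172 and 172.5, both within dnj-20, and pha-1 had 98.63, 2171 bp upstream. M4 uses acetylcholine, and cha-1 and unc-17, which share a locus for its synthesis and loading into vesicles, shared 1 peak with a signal of 212.1, 4748 bp upstream of cha-1. The esterase genes ace-2 and ace-1 had peaks of up to 177.3 and of 87.11, the last in a coding exon of sur-7. With a flank of 2000 bp, 1 of the 5 cholinergic genes, ace-2, had a peak, not 4. A summit in a promoter window of the gene itself occurred at 8 of the 40 genes, in the DBL-1 pathway (5), the FGF pathway (2) and at peb-1, against 11.2% of all genes.

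**Figure D4:**
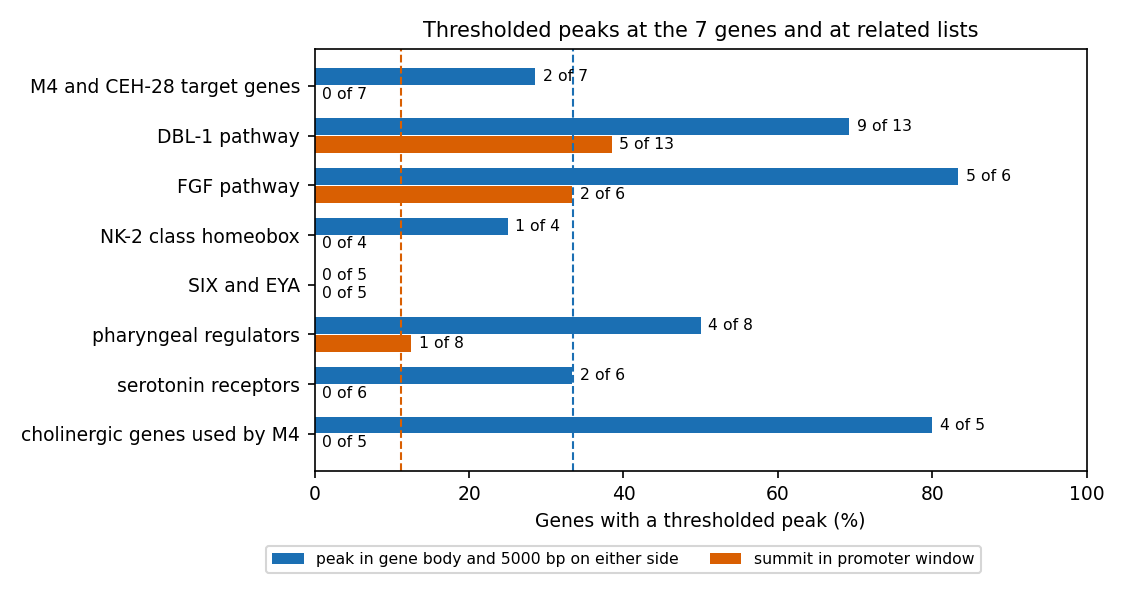
Share of genes (%) with a thresholded peak in the gene body and 5000 bp on either side (blue bars) and with a thresholded summit in a promoter window (orange bars), for the 7 genes and for 7 lists of related genes, with the counts beside the bars. The dashed lines give the shares over all protein-coding genes, 33.5% in blue and 11.2% in orange; the 7 genes have 2 and 0, and the DBL-1 pathway 9 and 5 of 13.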

How the data were processed

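Peaks of eGFP-tagged CEH-28 from ChIP-seq were read in lists of 2 biological replicates, with library fragments of 150 to 350 bp per the labels. The relaxed lists were called with control reads, and the thresholded list was made from them with an irreproducible discovery rate cutoff, per the deposited file records. Aligner and peak caller: not given in the sources used here. With every peak the authors deposited a signal and a −log10 q-value. This signal is their own, and it was used to rank and describe entries inside 1 list. Values of different lists stand side by side and were not compared in size. Relaxed lists include background, and the lists give no read counts, so depth is unknown. The ce10 lists were not used here.

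Coordinates are on ce11, counted from 1, with genes from Ensembl release 115 and tRNA products from the RefSeq annotation of the same assembly. A peak was in a window if it overlapped it by at least 1 bp, and rank 1 is the highest signal of a list. The 3531 strongest peaks of a replicate were taken as its strong peaks. No test was run on the 7 genes: counts stand beside those over all protein-coding genes. Where the replicates are compared, n is 2, which may hold technical spread. The 7 genes and the related lists were chosen with earlier results of these data known. Named were the 7 genes, unc-119, every related gene with a thresholded peak, and neighbours whose 5' end a described peak is near. The tRNA counts, the counts of GCGCAGGG carriers and the peak-free stretches were chosen after seeing the data. Alternatives were other flanks, promoter windows, overlap rules, motif windows, ranking by −log10 q-value, peaks above the median signal, and each replicate alone. With a replicate left out, the 3531 strongest relaxed peaks of the other stood in for the thresholded list. Those peaks had not passed the authors' test of reproducibility. For the ratio of peaks per kb, the whole relaxed list of the other replicate was used. Overlap counting was tested on simulated intervals. The analysis used Python 3.11.15, numpy 2.4.6, pandas 2.3.3 and matplotlib 3.10.9.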

Additional observations from a re-analysis of the deposited data

How the results depend on the processing

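The count of 0 of the 7 genes with a thresholded summit in a promoter window was also 0 with 2000 bp upstream and with each replicate left out. Narrower windows and stronger peaks are subsets and could not raise it. It was 1 (egl-17) with 500 bp downstream and 1 by peak interval, both tried after seeing the data. NK-2 class matches near pooled summits were 0 at 100 bp too. The 2 genes with a thresholded peak became 1 (egl-17) with a flank of 2000 bp or the gene body alone, 0 with peaks above the median signal, 3 with a flank of 10000 bp (zag-1 added), and 1 to 2 with each replicate left out, since without replicate 1 the ser-7 peak was lost. The share over all genes was then 22.5%, 9.45%, 18.8% and 46.6% for those 4 settings, and 33.4% and 33.3% without replicate 1 and 2. Peaks in the windows numbered 1, 1, 0 and 6 for the same settings, and 1 to 2 with a replicate left out. With double the number of strong peaks, 2 genes were strong in both replicates, not 1. The ratio of pooled peaks per kb of 0.348 was 0.514 with a flank of 10000 bp and 0.316 to 0.538 with each replicate left out, always below 1. AATCGAT or AATCAAT lay at 2 pooled summits within 50 bp and at 5 within 100 bp. Related genes with a peak numbered 23, 15 with a flank of 2000 bp, 8 by promoter summits, and 22 to 23 with a replicate left out. Without replicate 1 the FGF list had 3 of 5 others and the list with unc-39 gained 1. Of all recomputed values 29 were labelled the same as the reported one and 17 moved. The label allowed a set margin, so the 29 include changed values, such as 3 genes for 2 and 50 for 65 tRNA genes. They also include settings that could not raise a count. The cause was not tested beyond what each setting leaves out. tRNA genes with a summit nearby numbered 65, and 50 to 78 under alternatives chosen after seeing the data. No paired analysis was possible because both replicates are of 1 group. Depth is unknown, so that a peak not listed is not shown to be absent.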
